A study of Mus musculus with 6 samples.

Results

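The BCL2 family decides whether the outer membrane of the mitochondrion is opened during apoptosis, and 10 of its genes were taken by symbol for germinal vesicle (GV) oocytes of mice with a truncated *Bnc1* and of wild-type (WT) mice. They were 4 anti-death genes (*Bcl2*, *Bcl2l1*, *Bcl2l10* and *Mcl1*), 3 pore-forming genes (*Bax*, *Bak1* and *Bok*) and 3 BH3-only genes (*Bid*, *Bbc3* and *Pmaip1*). Of these 10 genes, 9 were among the 17577 genes listed for each library, and *Bbc3* (Puma) was not listed and is not analysed here. The 6 libraries came from C57BL/6 J females aged 12 weeks, with ovary as the tissue and oocyte as the cell type. In the 3 *Bnc1*tr/tr libraries both alleles of *Bnc1*, which encodes the zinc finger protein basonuclin 1, carried a small deletion that shifts the reading frame in every cell of the body, not in oocytes alone. The 3 WT libraries carried neither mutant allele, and the methods of the study describe littermate comparisons, gonadotropin (PMSG) stimulation before oocyte collection and cDNA made from single oocytes. The study calls its samples of a group biological replicates, run in duplicate, and does not say whether they came from different females, so p-values measure the spread between these libraries.

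In the intrinsic pathway of apoptosis, BAX and BAK form pores in the outer mitochondrial membrane and cytochrome c leaves the organelle. Anti-death members such as BCL2, BCL-XL (from *Bcl2l1*) and MCL1 bind and hold back both the pore formers and the BH3-only proteins, which sense damage or loss of survival signals. In the ovary, this balance sets how many oocytes survive, and PUMA and NOXA (from *Pmaip1*) act downstream of p53 family proteins in damaged oocytes of resting follicles. *Bcl2l10* (Diva or Boo) is a family member known for its high transcript level in oocytes. Its action on cell death has been described in both directions, and placing it with the anti-death genes was a choice made here.

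Values are FPKM (fragments scaled to transcript length in kilobases and to M, or mega, mapped fragments), so that levels of different genes can be set side by side. Estimated depth was 13.3 to 21.65 M fragments, at which 3 fragments on an effective transcript length of 1 kb equal 0.139 to 0.226 FPKM. *Bnc1* itself was at 9.04, 6.51 and 5.83 FPKM in *Bnc1*tr/tr and 13.17, 12.54 and 16.23 FPKM in WT, and was called lower. All 14 oocyte markers were listed, with summed levels of 10040 to 11376 FPKM in *Bnc1*tr/tr and 8525 to 13008 FPKM in WT. Of these markers, 1 was called higher (*Mos*) and 2 lower (*Zp2* and *Nlrp5*), against 24.1% and 7.68% of all tested genes. Log2 profiles correlated at 0.983 to 0.993 within and at 0.945 to 0.959 between genotypes, and more genes had a value above 0 in *Bnc1*tr/tr (15258 to 15736) than in WT (13896 to 14576).

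The 5′ flanks of *Bcl2* and *Bax* are shown first because these genes separated the genotypes in opposite directions, *Bcl2* toward higher and *Bax* toward lower values in *Bnc1*tr/tr oocytes. Each run is the 250 bases before the RefSeq start site on GRCm38.p6, 5′ to 3′ on the gene's own (minus) strand. Capitals mark the GC box, GGGCGG or its reverse complement CCGCCC. The windows are chr1:106714291-106714540 for *Bcl2* and chr7:45466899-45467148 for *Bax*.
Bcl2: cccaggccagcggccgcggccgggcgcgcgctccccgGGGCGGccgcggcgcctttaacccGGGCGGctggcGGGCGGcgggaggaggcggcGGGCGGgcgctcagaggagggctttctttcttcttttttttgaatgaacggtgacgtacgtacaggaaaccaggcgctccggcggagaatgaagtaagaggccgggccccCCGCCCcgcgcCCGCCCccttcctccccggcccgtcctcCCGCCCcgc
Bax: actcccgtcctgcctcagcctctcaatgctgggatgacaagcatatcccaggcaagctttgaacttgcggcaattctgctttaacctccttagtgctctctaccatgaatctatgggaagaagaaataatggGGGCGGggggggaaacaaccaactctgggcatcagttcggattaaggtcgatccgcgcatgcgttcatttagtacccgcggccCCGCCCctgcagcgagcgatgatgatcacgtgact
The *Bcl2* window held 7 GC boxes, 36 CpG sites and 74.8% G and C. The *Bax* window held 2 GC boxes, 14 CpG sites, 54.0% G and C and 1 E-box (CANNTG, both strands). A GC box occurred in 32.7% of 32851 such windows and an E-box in 66.2%, and the median over all windows was 52.4% G and C. Neither window held CCAAT (33.8% of all windows) or TATAAA (12.4%) on either strand. The table had windows for 8 of the 10 genes, and *Bcl2l10* and *Pmaip1* were the others. A match of letters describes the sequence and does not show that a factor binds there.

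*Bcl2l10* stood far above every other member in both genotypes. This gene (chr9:75347758-75351632, plus strand) has 1 annotated transcript and shared none of its 31-base words with other genes, so its reads can be assigned to it. The *Bnc1*tr/tr replicates 1 to 3 held 2908.69, 2996.65 and 2871.59 FPKM of it, and the WT replicates 2501.84, 2509.72 and 2542.20 FPKM. All *Bnc1*tr/tr values lay above all WT values, with means of 2926 ± 64.2 and 2518 ± 21.4 FPKM (SD, n = 3). Among all genes of a library it ranked 15, 16 and 16 in *Bnc1*tr/tr against 22, 25 and 31 in WT, and held 0.417% to 0.442% of the FPKM total against 0.351% to 0.372%. The log2 fold change was 0.22 (95% interval -0.12 to 0.55), and limma with Benjamini-Hochberg adjustment gave an adjusted p of 0.30. The median of all tested genes was itself shifted by 0.15 toward *Bnc1*tr/tr, so that the difference relative to that median was 0.07. It was 0.075 under upper-quartile scaling and 0.03 under median-ratio scaling (limma, adjusted p = 0.739 and 0.899). After quantile normalization it was 0.46 (limma, adjusted p = 0.0445), below the fold threshold of 0.5, so the size of the difference depends on the scaling.

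The order of levels below *Bcl2l10* was *Bax*, *Bcl2l1* and then a low group. In WT, *Bax* had a mean of 31.1 ± 7.64 FPKM and *Bcl2l1* of 15.6 ± 6.25 FPKM (SD, n = 3), and the values of neither overlapped those of its neighbours in the order. *Mcl1*, *Bid*, *Bok* and *Pmaip1* followed with means of 0.16 to 0.623 FPKM, where each pair of neighbours overlapped. *Bcl2* and *Bak1* came last in WT, *Bcl2* below *Pmaip1* in every library. In *Bnc1*tr/tr the values of *Bax* (21.6 ± 3.08 FPKM) and *Bcl2l1* (17.2 ± 5.84 FPKM; SD, n = 3) overlapped. *Pmaip1*, *Bcl2*, *Bid* and *Mcl1* then overlapped as neighbours with means of 1.11 to 1.57 FPKM, and *Bok* and *Bak1* were lowest. From WT to *Bnc1*tr/tr, *Bcl2* went from position 8 to 5 in the order, *Pmaip1* from 7 to 4 and *Mcl1* from 4 to 7.

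**Figure D1:**
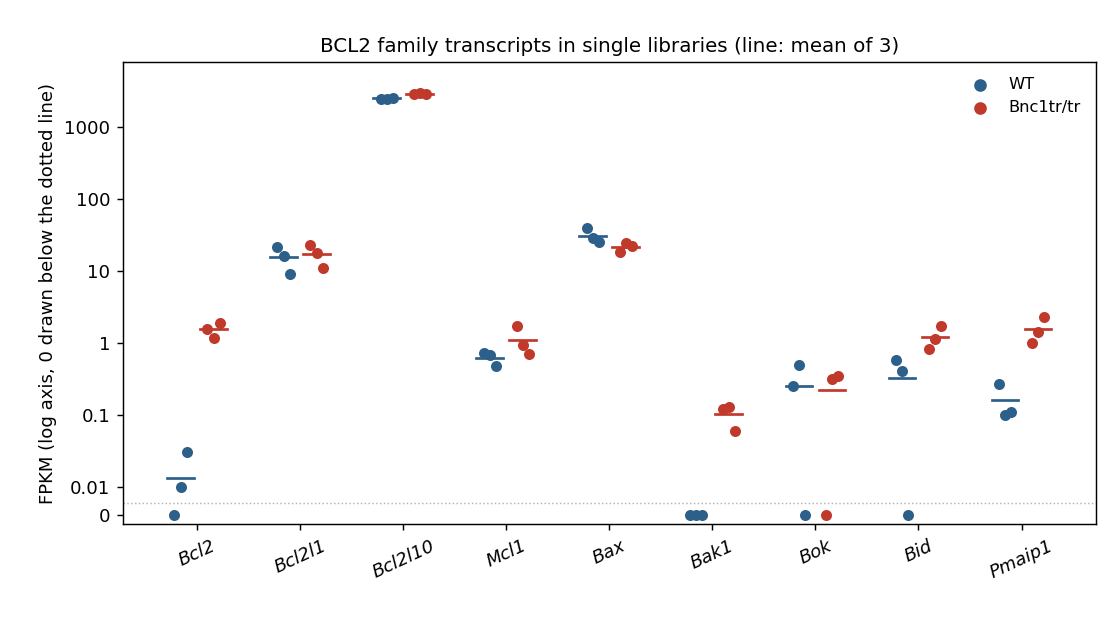
FPKM of the 9 listed members in each library on a log axis (values of 0 are drawn below the dotted line), with WT in blue, *Bnc1*tr/tr in red and a line at each mean of 3 libraries. *Bcl2l10* lies between 2501.84 and 2996.65 FPKM, *Bax* and *Bcl2l1* between 9.20 and 39.74 FPKM, and *Bcl2* and *Pmaip1* are higher in every *Bnc1*tr/tr library.

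Among the anti-death genes, *Bcl2*, the founding survival gene of the family, was nearly undetected in WT and present in each *Bnc1*tr/tr oocyte library. Its values were 1.55, 1.18 and 1.88 FPKM in *Bnc1*tr/tr and 0, 0.01 and 0.03 FPKM in WT. If all fragments came from its longest transcript (7191 bases), these values would equal about 143.7, 137.8 and 224.1 fragments in *Bnc1*tr/tr and 0, 1.2 and 4.5 in WT. No ratio is given, since the WT values rest on a few fragments at most. The mean over the 6 libraries was below the minimum of 1 FPKM, so the difference was tested in the fit over all genes with a value above 0. There, *Bcl2* was called higher with a log2 fold change of 1.31 on log2(FPKM + 1) (95% interval 1.02 to 1.60; limma, adjusted p = 0.0015), 1.22 above the median shift of that fit. It remained past the threshold in each other fit that included it, with adjusted p from 0.000312 to 0.0149. The filter of at least 1 FPKM in at least 3 samples admitted *Bcl2* only through the *Bnc1*tr/tr group, so its call under that filter adds no support. Exons of *Bcl2* (chr1:106538178-106714274, minus strand) overlap those of *D630008O14Rik* on the opposite strand, which was not listed, and reads of the pair cannot be told apart without strand.

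Immune transcripts moved with genotype beside *Bcl2*, which blood cells also express. The 10 immune markers summed to 48.8, 75.3 and 11.4 FPKM in *Bnc1*tr/tr and 3.02 to 4.46 FPKM in WT, and 2 of the 6 tested were called higher. Over all tested genes, 24.1% were called higher. *Lyz2*, *Tyrobp*, *Cd74* and *Ptprc* were at 0 in *Bnc1*tr/tr replicate 3, the library with the highest *Bcl2* value. The 11 listed granulosa and cumulus markers summed to 49.4 to 66.1 FPKM in *Bnc1*tr/tr and 23.4 to 41.0 FPKM in WT, and 3 of the 6 tested were called higher. These were *Fshr* (4.54 to 5.83 against 0 to 0.74 FPKM), *Cyp11a1* (5.29 to 6.08 against 0.60 to 2.17 FPKM) and *Kitl* (1.94 to 3.10 against 1.12 to 1.18 FPKM), while *Foxl2* was at 0 to 0.03 FPKM in all 6 libraries. *Fshr* passed the filter only through its *Bnc1*tr/tr values, so its call there adds no support. Most of the sum was *Cyp19a1* (27.49 to 44.41 against 17.41 to 28.98 FPKM), which overlapped and was not called. *Inhba* and *Nr5a2* had higher means without a call. The means of *Inha* (0.09 to 1.81 against 0.04 to 6.78 FPKM), *Hsd17b1*, *Fst* and *Amhr2* were lower in *Bnc1*tr/tr, with overlap and without a call. The 6 listed theca and stroma markers summed to 5.50 to 7.53 against 1.54 to 2.09 FPKM, mostly *Dcn*, and the 5 endothelial markers to 11.7 to 12.7 against 11.3 to 12.95 FPKM. Within the endothelial sum *Flt1* was called higher (4.20 to 6.70 against 1.10 to 1.21 FPKM) and *Pecam1* lower (3.16 to 5.13 against 7.55 to 9.92 FPKM). The part of other cells in the low members was not tested.

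*Bcl2l1*, which encodes BCL-XL and its shorter pro-death isoform, overlapped between genotypes. It was at 22.70, 17.88 and 11.07 FPKM in *Bnc1*tr/tr and 21.69, 15.93 and 9.20 FPKM in WT. The log2 fold change was 0.15 (95% interval -0.60 to 0.90; limma, adjusted p = 0.76) and its direction turned with the scaling, to -0.019 under median-ratio scaling and -0.088 after quantile normalization. Leaving out *Bnc1*tr/tr replicate 1 or WT replicate 3 turned it as well (-0.063 and -0.16). *Mcl1*, a short-lived survival protein needed in many cell types, was at 1.69, 0.92 and 0.71 FPKM in *Bnc1*tr/tr and 0.73, 0.67 and 0.47 FPKM in WT. The groups overlapped, and the fit without the filter gave a log2 fold change of 0.35 (95% interval -0.11 to 0.81; limma, adjusted p = 0.25), which was -0.067 after quantile normalization. The gene tables do not separate the isoforms of *Bcl2l1* and *Mcl1*.

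Among the pore formers, *Bax* was lower in every *Bnc1*tr/tr oocyte library. It was at 18.36, 24.47 and 22.08 FPKM in *Bnc1*tr/tr and 39.74, 28.49 and 25.15 FPKM in WT. The groups did not overlap, although the highest *Bnc1*tr/tr and the lowest WT values lay close together. The WT mean was 1.44 times the *Bnc1*tr/tr mean, and the log2 fold change of -0.49 (SE 0.21, 95% interval -0.97 to -0.01) had a limma adjusted p of 0.11. Relative to the median shift it was -0.63. Upper-quartile and median-ratio scaling brought the median of all tested genes to 0.024 and -0.015. *Bax* was then called lower, at -0.62 under upper-quartile (limma, adjusted p = 0.0368) and -0.67 under median-ratio scaling (limma, adjusted p = 0.0318). Quantile normalization moved that median past 0, to -0.09, and *Bax* was called lower there too (-0.67; limma, adjusted p = 0.0297). Those scalings called 11.7%, 13.2% and 17.1% of all tested genes lower and 20.3%, 19.3% and 15.8% higher, against 7.68% and 24.1% on the deposited scale. Without WT replicate 1, the highest *Bax* library, the fold change was -0.30 (limma, adjusted p = 0.304). *Bax* (chr7:45461697-45466898, minus strand) shares 9.9% of its 31-base words with the readthrough gene *Gm45808*, so a part of its reads could be counted there.

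The other pore formers were close to the limit of detection. *Bak1*, which acts beside *Bax* in most tissues, was at 0.12, 0.13 and 0.06 FPKM in *Bnc1*tr/tr and listed at 0 in all WT libraries. Even with its longest transcript these values correspond to about 2.2 to 4.7 fragments, and no fold is given. It was called higher in 1 of the fits run, with a pseudocount of 0.1 (limma, adjusted p = 0.0198). Its exons overlap *Ggnbp1* on the opposite strand, which was at 0.46 to 2.05 FPKM in *Bnc1*tr/tr and 0.21 to 0.96 FPKM in WT. *Bok*, a pore former that most survival proteins do not restrain, was at 0, 0.31 and 0.35 FPKM in *Bnc1*tr/tr and 0.25, 0.50 and 0 FPKM in WT. Its groups overlapped, and its fitted difference was -0.03 (limma without the filter, adjusted p = 0.94).

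Both listed BH3-only members were higher in each *Bnc1*tr/tr library. *Pmaip1*, which encodes NOXA, an inhibitor of MCL1, was at 0.99, 1.43 and 2.30 FPKM in *Bnc1*tr/tr and 0.27, 0.10 and 0.11 FPKM in WT. The mean was 9.83 times that of WT, where the values correspond to about 4.2 to 10.1 fragments on the longest transcript. Without the filter it was called higher, with a log2 fold change of 1.12 (95% interval 0.63 to 1.61; limma, adjusted p = 0.0133). The call was lost after quantile normalization (0.78, adjusted p = 0.0613) and without *Bnc1*tr/tr replicate 2 or WT replicate 2 (limma, adjusted p = 0.0581 and 0.0674). *Bid*, which links caspase-8 to the mitochondrion, was at 0.81, 1.12 and 1.70 FPKM in *Bnc1*tr/tr and 0.57, 0.41 and 0 FPKM in WT. The groups did not overlap, and the log2 fold change of 0.74 (95% interval 0.19 to 1.30) did not pass the threshold (limma without the filter, adjusted p = 0.0699). Exons of *Bid* overlap *Bcl2l13* on the opposite strand.

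Across the members, the fit with the filter tested 3 of the 9 genes (*Bcl2l1*, *Bcl2l10* and *Bax*) and called 0 of them, against 31.8% of all 10560 genes tested. At an unadjusted p under 0.05, limma gave 1, *Bax*. Without the filter it called 2 of 9, *Bcl2* and *Pmaip1*, both higher, against 19.4% of all 17574 genes (15.6% higher and 3.83% lower). Values of *Bcl2*, *Bcl2l10*, *Bak1*, *Bid* and *Pmaip1* were higher without overlap (5 of 9, against 28.2% of all genes with a value above 0), and those of *Bax* lower (1 of 9, against 9.78%). Higher values were found among anti-death and pro-death members alike.

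**Figure D2:**
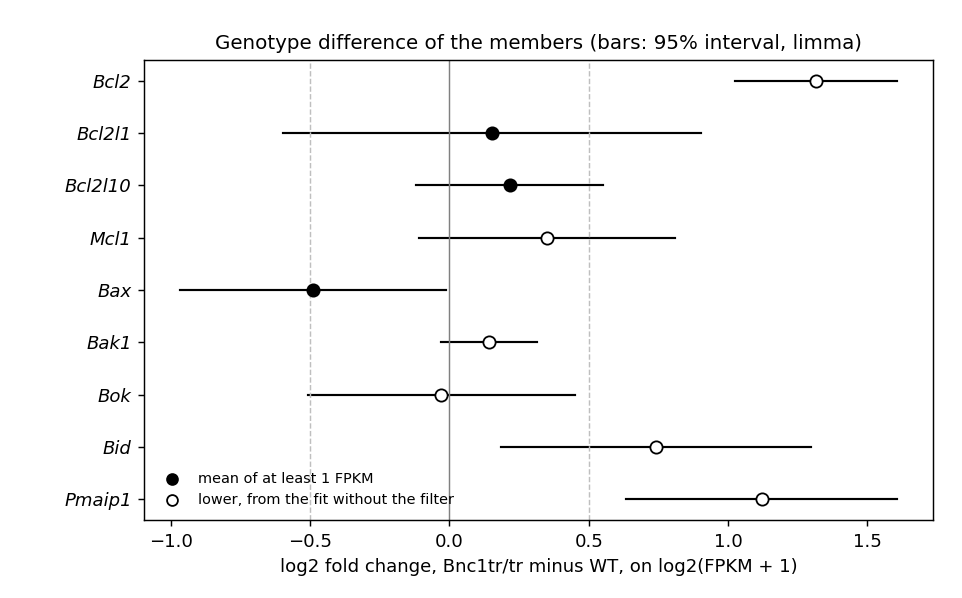
Log2 fold change of each listed member, *Bnc1*tr/tr minus WT, on log2(FPKM + 1) with its 95% interval from limma. Filled points are the genes averaging 1 FPKM or more, open points come from the fit without that filter, and dashed lines stand at the threshold of 0.5 either way. *Bcl2* (1.31) and *Pmaip1* (1.12) lie highest and *Bax* (-0.49) lowest.

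The sum of anti-death transcripts was above that of pro-death transcripts in all libraries, through *Bcl2l10*. *Bcl2l10* made up 99.1% to 99.6% of the anti-death sum. The pro-death sum was mostly *Bax*, at 83.4% to 90.5% in *Bnc1*tr/tr and 96.6% to 99.6% in WT. The ratio of the sums was 145, 110 and 109 in *Bnc1*tr/tr and 61.8, 85.6 and 101 in WT, without overlap. Without *Bcl2l10* it was 1.279, 0.728 and 0.516 in *Bnc1*tr/tr and 0.549, 0.563 and 0.384 in WT, and the groups overlapped. These sums weigh transcripts only and were not tested.

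*Bax* relative to single anti-death members does not depend on a scaling that multiplies a whole library by a single factor. Quantile normalization moves genes separately, and the ratios were not computed after it. *Bcl2l10* was 158, 123 and 130 times *Bax* in *Bnc1*tr/tr and 62.96, 88.1 and 101 times *Bax* in WT. The log2 ratio of *Bax* over *Bcl2l10* was lower in *Bnc1*tr/tr by a difference of -0.72, without overlap (exact two-sided permutation p = 0.10, adjusted over 3 ratios 0.15). *Bax* was 10.9, 26.6 and 31.1 times *Mcl1* in *Bnc1*tr/tr and 54.4, 42.5 and 53.5 times *Mcl1* in WT, a log2 difference of -1.26 without overlap (exact two-sided permutation p = 0.10, adjusted 0.15). The smallest p that 3 against 3 libraries allow is 0.10, so no ratio could reach 0.05. *Bax* was 0.809, 1.37 and 1.995 times *Bcl2l1* in *Bnc1*tr/tr and 1.83, 1.79 and 2.73 times *Bcl2l1* in WT, and here the groups overlapped (log2 difference -0.67, exact two-sided permutation p = 0.30). Without *Bnc1*tr/tr replicate 1, the log2 difference shrank to -0.79 for *Mcl1* and -0.33 for *Bcl2l1*. For *Bcl2l10* it ran from -0.87 to -0.53 with a library left out.

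**Figure D3:**
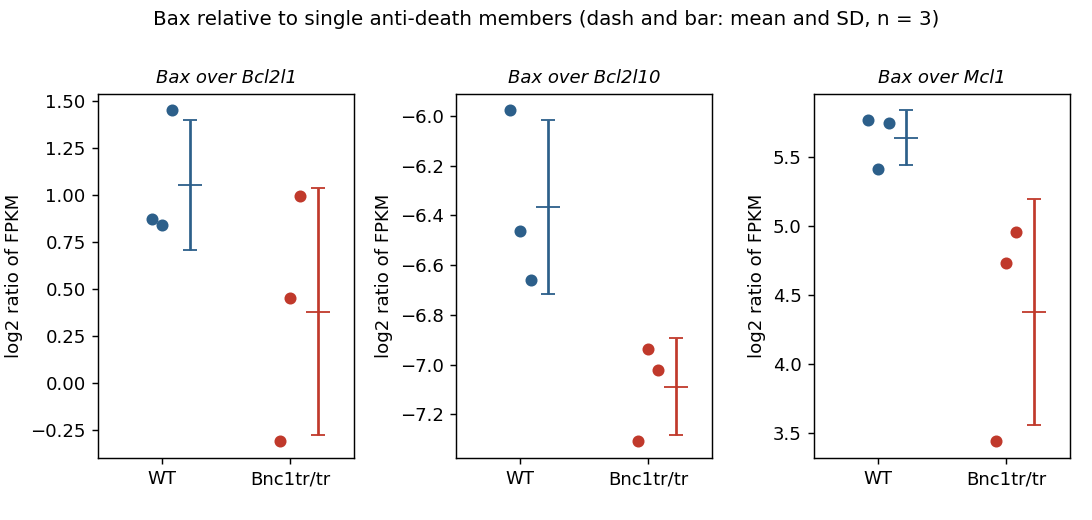
Log2 ratio of *Bax* FPKM over that of *Bcl2l1*, *Bcl2l10* and *Mcl1* in each library, with WT in blue, *Bnc1*tr/tr in red, and a dash and bar for the mean and SD of 3 libraries. The genotypes are apart for *Bcl2l10* and *Mcl1* and overlap for *Bcl2l1*. The axes differ in range and do not start at 0.

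The rest of the death pathway was taken as 48 genes in 5 lists, of which 47 were listed and 39 tested. Of these 39 genes, 7 were called higher (17.9%, against 24.1% of all tested genes) and 2 lower (5.1%, against 7.68%). Their median log2 fold change was 0.09, against 0.15 over all tested genes. Both shares were below those over all tested genes. Of the 7 higher genes, *Bcl2l14* and *Apaf1* passed the filter only through their *Bnc1*tr/tr values, so their calls there add no support to these counts.

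Further BCL2 family genes held 4 of the 9 calls, 3 higher and 1 lower among 7 tested. Over all tested genes, 24.1% were called higher and 7.68% lower. The median log2 fold change of these 7 genes was 0.51. *Bik*, a BH3-only gene whose protein sits at the endoplasmic reticulum, rose from 24.54, 31.15 and 23.53 FPKM in WT to 64.61, 63.12 and 51.33 FPKM in *Bnc1*tr/tr (log2 fold change 1.15; limma, adjusted p = 0.0016). It was more abundant than *Bax* in every *Bnc1*tr/tr library, and in WT it was below *Bax* in replicates 1 and 3 and above it in replicate 2. *Bcl2l14* (BCL-G) was listed at 0 in all WT libraries and at 10.76, 5.63 and 2.79 FPKM in *Bnc1*tr/tr, and was called higher with and without the filter (limma, adjusted p = 0.000463 and 0.00736), its fold depending on the pseudocount. *Bcl2l11*, which encodes the BH3-only protein BIM, rose from 1.54 ± 0.175 to 2.62 ± 0.0757 FPKM (SD, n = 3; log2 fold change 0.51, limma adjusted p = 0.0327), barely past the fold threshold. *Bcl2l12* fell from 23.26, 24.73 and 13.41 FPKM to 13.10, 11.12 and 9.08 FPKM (log2 fold change -0.79; limma, adjusted p = 0.0386). The *Bcl2l11* call was lost without each library but WT replicate 3 (limma, adjusted p from 0.0516 to 0.139) and under the other scalings, with a fold change of 0.069 after quantile normalization. That of *Bcl2l12* was lost without each library but WT replicate 3 (limma, adjusted p from 0.0515 to 0.142), with a pseudocount of 0.1 (adjusted p = 0.0625) and with no filter (adjusted p = 0.0846). The *Bcl2a1* genes, survival genes of blood cells that share 79.6% to 89.1% of their words with other genes and are uncertain, were above 0 only in *Bnc1*tr/tr replicates 1 and 2, the libraries that also held *Lyz2* and *Tyrobp*.

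Downstream of the mitochondrion, 3 of 11 tested apoptosome and caspase genes were called higher and none lower. Over all tested genes these shares were 24.1% and 7.68%, and the median log2 fold change of the list was 0.09. *Apaf1*, the scaffold that cytochrome c activates, rose from 0.36, 0.83 and 0.75 FPKM to 3.97, 2.32 and 3.21 FPKM (log2 fold change 1.33; limma, adjusted p = 0.0014, or 0.0070 without the filter). *Endog*, a mitochondrial nuclease, rose from 8.42 ± 0.27 to 14.03 ± 1.54 FPKM (SD, n = 3; log2 fold change 0.67, limma adjusted p = 0.0125). The *Endog* call was lost after quantile normalization (0.38; limma, adjusted p = 0.111) and, by its fold change of 0.498, under median-ratio scaling. The most abundant genes of the list did not pass: *Cycs* (cytochrome c) had means of 132 in *Bnc1*tr/tr and 168 FPKM in WT, and *Casp8* of 60.4 and 61.1 FPKM.

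Of 5 caspase inhibitor genes, 1 fell and none rose, against 7.68% and 24.1% of all tested genes (median log2 fold change 0.04). *Birc6*, a large ubiquitin ligase that restrains caspases, fell from 5.93 ± 1.53 to 2.98 ± 0.52 FPKM (SD, n = 3; log2 fold change -0.79, limma adjusted p = 0.0183), a call lost without *Bnc1*tr/tr replicate 2 or WT replicate 2 (limma, adjusted p = 0.0689 and 0.0532). *Birc5* (survivin), which also serves chromosome segregation, had means of 1384 ± 172 in *Bnc1*tr/tr and 1769 ± 42.2 FPKM in WT (SD, n = 3; log2 fold change -0.36, limma adjusted p = 0.126). *Birc3* was at 145 and 142 FPKM. Of 8 tested genes for BCL2 family partners or for MCL1 turnover, none was called by limma, against 31.8% of all tested genes. At an unadjusted p under 0.05, limma gave 1 of the 8, and their median log2 fold change was -0.14. Their most abundant genes, the mitochondrial channels *Vdac3* (488 in *Bnc1*tr/tr and 678 FPKM in WT, adjusted p = 0.0698 in limma) and *Vdac2* (348 and 369 FPKM), did not pass. Median-ratio scaling brought *Vdac3* (-0.68; limma, adjusted p = 0.0257) and *Birc5* (-0.55; limma, adjusted p = 0.0404) past the threshold. Upper-quartile scaling did so for *Vdac3* as well (-0.63; limma, adjusted p = 0.0315).

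Among 8 regulators of BH3-only genes, 1 rose and none fell, against 24.1% and 7.68% of all tested genes (median log2 fold change 0.32). *Trp73*, a p53 family gene, rose from 1.26 ± 0.333 to 3.57 ± 1.48 FPKM (SD, n = 3; log2 fold change 0.98, limma adjusted p = 0.0169). That call was lost without *Bnc1*tr/tr replicate 1 or 2 or WT replicate 2 (limma, adjusted p from 0.0521 to 0.068) and after quantile normalization (0.54; limma, adjusted p = 0.103). *Ddit3* (CHOP), a stress factor, had means of 251 and 194 FPKM (limma, adjusted p = 0.18), and *Atf4* of 48.3 and 48.7 FPKM.

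**Figure D4:**
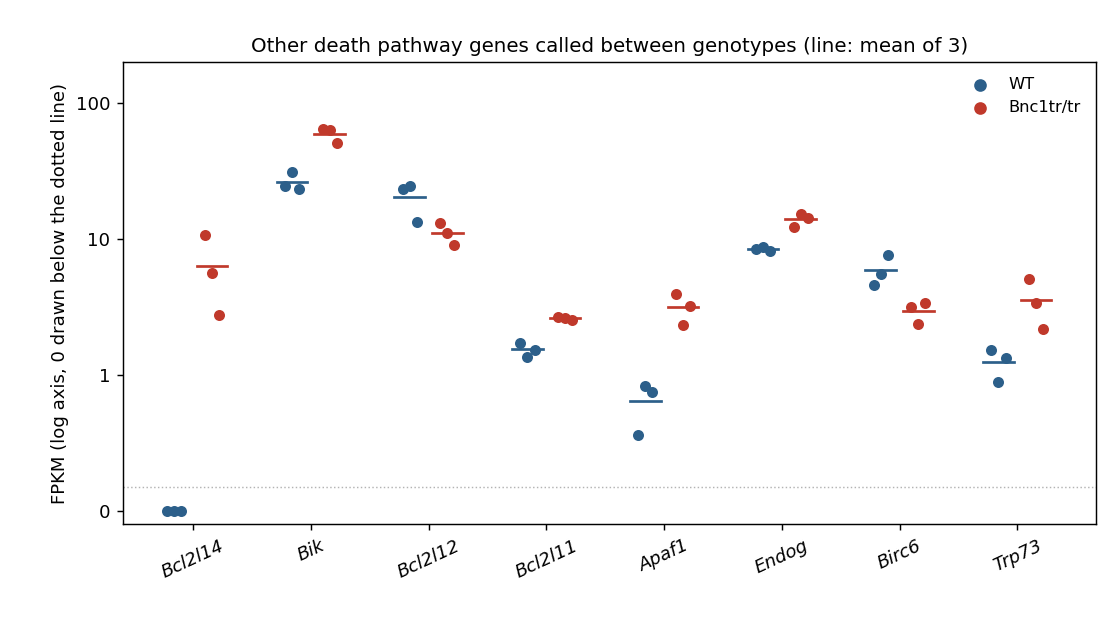
FPKM of 8 called genes of the other death pathway lists in each library on a log axis (values of 0 are drawn below the dotted line), with WT in blue, *Bnc1*tr/tr in red and a line at each mean of 3 libraries. *Bcl2l12* and *Birc6* are lower and the other 6 higher in every *Bnc1*tr/tr library.

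The genes most like *Bcl2l10* over the 6 libraries, among 5282 genes averaging 10 FPKM or more, were *Fam161a* (Pearson's r of log2 values 0.999), *Tcea3* (0.998) and *Slc23a3* (0.998). They describe a pattern that 700 genes shared at r above 0.9, since any gene that differs evenly between genotypes correlates this way. *Slc23a3* was at 66.73, 87.79 and 66.87 FPKM in *Bnc1*tr/tr and 16.29, 16.83 and 18.86 FPKM in WT, a wider separation than that of *Bcl2l10*.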

How the data were processed

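The authors deposited 1 gene table per library in FPKM, rounded to 2 decimals. The submitters' processing notes name HISAT2 2.0.4, Bowtie2 2.2.5, RSEM 1.2.12 and GRCm38.p6 without their roles, and which annotation or gene filter was used is not given in the sources used here. FPKM is relative to each library's total and does not show a change in total RNA, and counting estimates cover counting error only. Symbols stored as dates (25) were restored by gene ID. Genotypes were compared with limma 3.58.1 (R 4.3.3) on log2(FPKM + 1), keeping genes that averaged 1 FPKM or more and adjusting over all of them, which understates changes of low genes. A call needed an adjusted p below 0.05 together with a log2 fold change beyond 0.5 in either direction, the thresholds the study gives for its oocyte comparison. The script was tested on simulated data. Depth was estimated from steps of low FPKM values over 934 genes with 1 transcript. The members and lists were chosen with earlier results of these data known. Named genes were all members, the called genes and the 2 most abundant of each list, and the 3 genes most correlated with *Bcl2l10*. Of these, 1 called gene is counted in its list but not reported here. Other pseudocounts, filters, scalings, variance models, a replicate block and leaving out each library were tried. Gene positions and shared words came from GENCODE M21, flanks from RefSeq. Figures were drawn with matplotlib 3.10.9.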

Additional observations from a re-analysis of the deposited data

How the results depend on the processing

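The count of members called was 0 of 3 with the filter at a mean of 1 FPKM, 2 of 9 with no filter on low values, 1 of 4 with at least 1 FPKM in at least 3 samples, and 1 of 3 (*Bax*) with quantile normalization and with upper-quartile or median-ratio scaling. It stayed at 0 under the other settings and without each library. In the other death pathway lists 9 genes were called, 3 of 22 tested at a mean of at least 5 FPKM (fewer genes tested), and 4 to 8 when a library was left out: 5 without *Bnc1*tr/tr replicate 1, 5 without *Bnc1*tr/tr replicate 2 and 4 without WT replicate 2. Their split of 7 higher and 2 lower became 4 and 4 under median-ratio scaling and 3 and 7 after quantile normalization. *Bik*, *Apaf1* and *Bcl2l14* stayed past the threshold wherever they were tested. Fits with a filter admitted *Apaf1* and *Bcl2l14* only through their *Bnc1*tr/tr values, so their calls in those fits add no support. Same-numbered libraries of the genotypes deviated together with r = 0.28, -0.03 and 0.12, so the numbers were not taken as pairs. *Bnc1*tr/tr replicate 2 correlated best with WT replicate 3, the other *Bnc1*tr/tr replicates with their own number. The replicate block called 0 members and left the mean log2 balance of the sums at 0.56.

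Over 27 genes and 382 fits of single genes, 320 kept direction and side of the threshold, 35 lost and 7 gained a call, and 20 turned direction. The turns, all in genes not called, came with another scaling in *Bcl2l1* (-0.019 median-ratio, -0.088 quantile), *Mcl1* (-0.067 quantile) and *Birc3* (-0.15 median-ratio, -0.10 upper-quartile). With a library left out, the values ran from -0.16 to 0.42 in *Bcl2l1*, -0.18 to 0.11 in *Bok*, -0.57 to 0.016 in *Cycs*, -0.22 to 0.25 in *Casp8*, -0.069 to 0.17 in *Birc3*, -0.22 to 0.084 in *Vdac2* and -0.26 to 0.22 in *Atf4*. The log2 balance of the sums was 0.56, 0.37 to 0.72 with a library left out and 0.67 without *Bcl2l10*. The fits that join no filter with another setting were chosen after seeing the data. The cause of these changes was not tested.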
